A study of Mus musculus with 60 samples.

Results

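The genes described are 33 genes of amino acid uptake, serine and folate one-carbon metabolism and the ATF4 response, taken from a list of symbols. They matched 34 of the 55414 rows of the count table, because Ddit3 has a pair of rows at overlapping loci. One of that pair had no read in any library, so the Ddit3 count from the other row is uncertain and only that row was used. Of the 33 rows with reads, 31 passed the filter on low counts in at least 1 comparison, and Slc7a11 and Vldlr passed in none.

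The study measured mRNA in naive CD8 T cells purified by negative selection from the spleens of NOD mice, an autoimmune-prone strain, that carry the OT-I transgenic T cell receptor, which recognises a peptide of ovalbumin. Sh2b3, which encodes the adaptor protein LNK, was either intact (Sh2b3+/+, called wild type below) or deleted (Sh2b3-/-, called knockout), and every mouse was of the NOD OT-I background. Cells were left unstimulated (0 h) or cultured for 2, 6 or 24 h on plate-bound anti-CD3 at 10 µg/mL with soluble anti-CD28 at 5 µg/mL, and some 24 h cultures also received an antibody that blocks IL-2 at 10 µg/mL. The 60 libraries fall into 10 groups: 11 libraries per genotype at 0 h, 5 per genotype at each of 2, 6 and 24 h, and 4 per genotype at 24 h with anti-IL-2. Whether libraries of 1 group came from separate mice is not given, so p-values measure the spread between these libraries, which may be technical. In bulk RNA, fewer cells that carry a transcript and less of it per cell cannot be told apart.

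T cells that leave quiescence import large amounts of amino acids. SLC7A5 and SLC3A2 form the exchanger that brings in leucine and other large neutral amino acids, SLC7A1 carries arginine and lysine, and SLC1A5 and the SLC38 carriers bring in glutamine and small neutral amino acids. Serine, made from a glycolytic intermediate by PHGDH, PSAT1 and PSPH, gives carbon to folate through SHMT1 and SHMT2, and the MTHFD enzymes pass that carbon on to purine and thymidylate synthesis. ATF4 is a transcription factor that is controlled largely at translation, rises in protein when amino acids are short or mTORC1 is active, and drives many of the genes described here, among them Asns, Psat1, Chac1 and Trib3.

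The libraries held between 13987029 and 35476519 counted reads, with a median of 17994613. Levels are given in CPM, reads of a gene relative to the TMM-scaled total of its library. Sh2b3 itself ranged from 64.7 to 171 CPM over the wild-type libraries and from 7.57 to 31.4 CPM over the knockout libraries, with no overlap. The 6 CD8 T cell markers Cd8a, Cd8b1, Cd3e, Cd3d, Trac and Lck were above 1 CPM in every group, and their sum ran from 4901 to 5763 CPM at 0 h and from 1967 to 3377 CPM in all later groups, the lowest with anti-IL-2 (1967 to 2221 CPM). The summed level of 5 monocyte and macrophage markers did not exceed 4.96 CPM in any library, that of 4 neutrophil markers 3.59 CPM and that of 3 CD4 T cell markers 11.6 CPM. The 5 B cell markers summed to between 5.44 and 64.1 CPM, 5 dendritic cell and MHC class II genes to between 1.61 and 62.2 CPM, 4 NK cell genes to between 22.6 and 413 CPM (nearly all Nkg7), and 5 erythroid and platelet genes to between 2.06 and 143 CPM. Their part in the results below was not tested. The knockout libraries with label numbers 8, 18 and 28, 1 each of the 0, 2 and 6 h groups, stood apart in earlier results of these data. Numbered within their groups, as below, they are library 10 at 0 h, library 3 at 2 h and library 3 at 6 h. Without them 19 genes (2 h against 0 h), 15 (6 h against 2 h) and 16 (24 h against 6 h) were called in knockout, in place of 20, 18 and 12. Numbers in the library labels divide the libraries into sets. Set A holds 5 libraries per genotype at 0, 2 and 6 h. Sets B and C hold the remaining 0 h libraries and all 24 h libraries without anti-IL-2. Set D holds all anti-IL-2 libraries and no others. Set was a term of the time fits, and the step from 6 to 24 h is therefore measured through the 0 h libraries that sets A, B and C share.

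The promoters of these genes differ in whether they carry the sequence that ATF4 and C/EBP proteins bind as a pair. RefSeq windows of 300 bases (250 before the start of the gene and 50 after, build GRCm38.p6, which is not the GRCm39 build of the counts) matched 29 of the 33 genes by symbol, through 35 windows. The core of the C/EBP-ATF response element, TGATGNAA on either strand, was in a window of 8 of these 29 genes (27.6%). Counted by window, it was in 8 of the 35 windows, and in 3.97% of the 32851 windows of the same length. The E-box CACGTG is a palindrome bound by MYC and related factors and shares no overlap with the other motif. It was in a window of 1 of the 29 genes, Aldh18a1 (3.45%). Counted by window, it was in 1 of the 35 windows and in 7.15% of all windows. The 8 genes with the response element core were Slc7a11, Slc1a4, Asns, Got1, Pycr1, Chac1, Trib3 and Vldlr. Since many of the genes were listed as ATF4 targets, their share is a description, and a match is not a shown binding site. Runs of 30 bases around 5 of these matches and the E-box are printed in the direction of the gene, with the match in capitals, because 4 of these 5 genes were at or near 0 reads in naive cells. The lines give Asns (chr6:7693214-7693243, minus strand), Pycr1 (chr11:120643833-120643862, minus strand), Chac1 (chr2:119351038-119351067, plus strand), Slc7a11 (chr3:50443661-50443690, minus strand), Got1 (chr19:43524689-43524718, minus strand) and the E-box of Aldh18a1 (chr19:40588505-40588534, minus strand).
Asns: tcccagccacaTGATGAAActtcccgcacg
Pycr1: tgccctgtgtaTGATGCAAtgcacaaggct
Chac1: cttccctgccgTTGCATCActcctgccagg
Slc7a11: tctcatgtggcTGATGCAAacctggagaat
Got1: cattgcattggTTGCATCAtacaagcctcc
Aldh18a1: ggagggggccgcCACGTGgagcgtgggcgc
The match began 23 bases before the start of Asns, 103 before Pycr1, 193 before Chac1, 66 before Slc7a11 and 102 before Got1. In Chac1 and Got1 it reads as the reverse complement of the motif. Slc7a11 held a further match 47 bases before the start.

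Most of these genes changed after 0 h, and the classes did so on different schedules. No cells were cultured without anti-CD3 and anti-CD28, so stimulation and time in culture cannot be told apart. By 24 h in wild-type cells, 23 of the 30 genes tested were higher than at 0 h (76.7%, against 27.8% of all 14431 genes tested) and 5 were lower (16.7%, against 31.6%), at an adjusted p under 0.05 in edgeR's quasi-likelihood test. Their median log2 change was 1.02, and the median over all genes was -0.09. In knockout cells 25 of 31 were higher (80.6%, against 30.1% of 14726 genes) and 3 were lower (9.68%, against 29.8%), with a median of 1.49 against -0.05 over all genes. Slc1a4, Asns, Bcat1, Pycr1 and, in knockout cells, Chac1 enter these counts although they did not pass the filter among 0 h libraries alone; they passed through later groups where they were high. Among the 26 genes that also passed at 0 h, 19 were higher and 5 lower at 24 h in wild type, and 20 higher and 3 lower in knockout.

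Single steps of the time course touched different numbers of genes. At 2 h against 0 h, 14 of 30 genes were higher in wild type (46.7%, against 26.4% of all genes) and 9 lower (30%, against 27.2%), and in knockout 12 of 31 were higher (38.7%, against 23.9%) and 8 lower (25.8%, against 24.5%). The lower share at this step was thus near that of all genes. Among the 26 genes that also passed at 0 h it was somewhat above, at 34.6% in wild type and 30.8% in knockout. At 6 h against 2 h, 18 were higher in wild type (60%, against 18.8%) and 3 lower (10.0%, against 18.5%), and 17 were higher in knockout (54.8%, against 17%) and 1 lower (3.23%, against 13.8%). At 24 h against 6 h, 10 were higher in wild type (33.3%, against 14.8%) and 5 lower (16.7%, against 17.5%), and 11 were higher in knockout (35.5%, against 17%) and 1 lower (3.23%, against 16.2%). Among the 26 genes that also passed at 0 h, the counts higher and lower in wild type were 11 (42.3%) and 9 at 2 h against 0 h, 14 (53.8%) and 3 at 6 h against 2 h, and 10 (38.5%) and 5 at 24 h against 6 h. In knockout they were 10 (38.5%) and 8, 13 (50%) and 1, and 11 (42.3%) and 1. The highest group mean of the time course fell at 24 h for 17 of 30 genes in wild type and 18 of 30 in knockout, at 6 h for 3 and 4, at 2 h for 5 and 5, and at 0 h for 5 and 3. These 30 include Slc1a4, Asns, Bcat1 and Pycr1, which passed the filter only through later groups where they were high. In wild type Pycr1 was highest at 6 h and the others at 24 h, and in knockout all were highest at 24 h. The means were not adjusted for library set, and no such count was made over all genes.

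**Figure D1:**
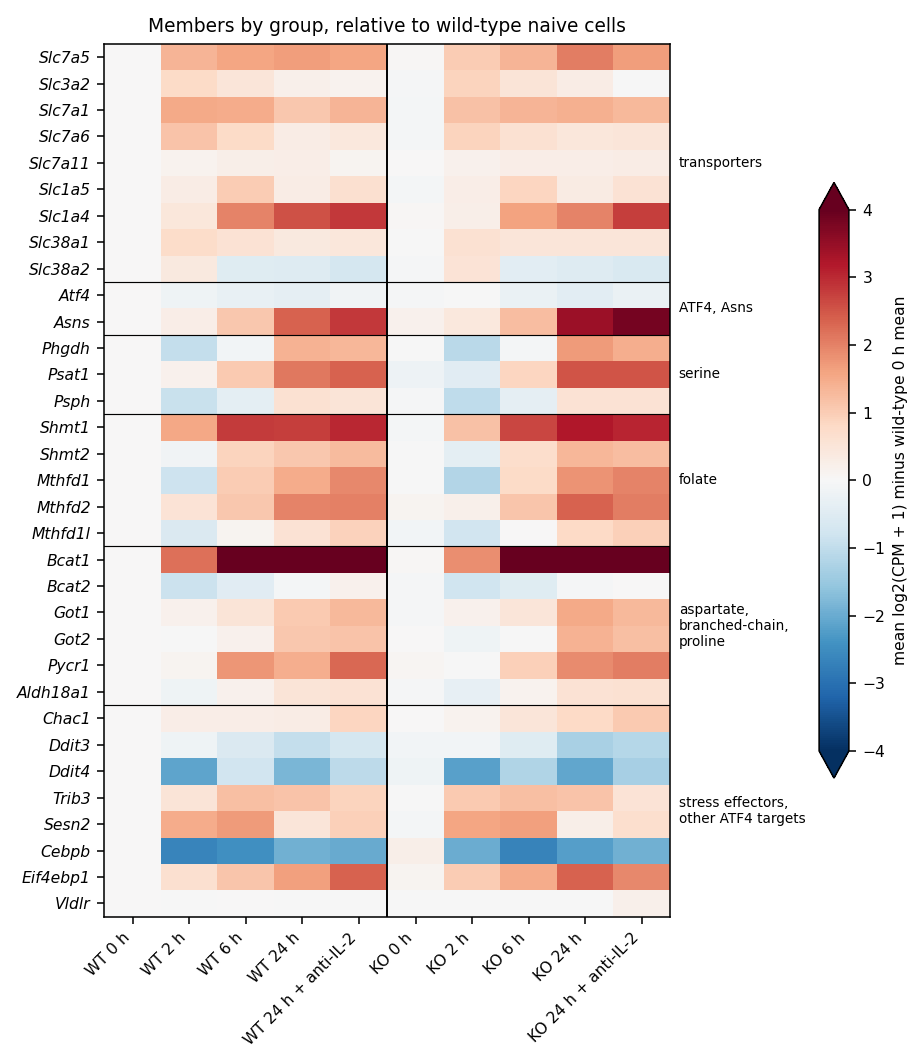
Mean log2(CPM + 1) of each gene (rows, by role) in each of the 10 groups (columns), minus its mean in the 11 wild-type 0 h libraries; red is higher and blue lower, and the colour scale ends at -4 and 4, which Bcat1 passes from 6 h on. The serine enzymes are red at 24 h and most folate enzymes from 6 h on in both genotypes, while Ddit4, Cebpb and Ddit3 stay blue after 0 h.

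Most transporters rose within 2 h. In wild type 7 of the 8 tested carriers were higher at 2 h than at 0 h and none was lower, and in knockout 6 of 8 were higher and none lower (26.4% and 23.9% of all genes were higher at this step). One of the 8, Slc1a4, did not pass the filter among 0 h libraries alone, and without it the counts are 6 and 6 of 7. Slc7a5, the light chain of the leucine exchanger, lay between 63.3 and 99.0 CPM (median 70.8) in wild-type 0 h libraries. At 2 h the 5 wild-type libraries held 224, 182, 184, 189 and 150 CPM, at 6 h 188, 171, 264, 242 and 221 CPM, and at 24 h 203, 231, 212, 255 and 256 CPM. No stimulated library overlapped the 0 h range, and the log2 change was 1.44 ± 0.11 (SE) at 2 h and 1.6 ± 0.10 at 24 h, both against 0 h (adjusted p = 1.57e-13 for the first). The knockout followed with 62.7 to 83.0 CPM (median 78.9) at 0 h, then 140, 170, 208, 149 and 87.1 CPM at 2 h, then 338, 274, 379, 288 and 224 CPM at 24 h.

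Slc7a1, the arginine and lysine carrier, rose 1.47 ± 0.10 on the log2 scale at 2 h in wild type, from 84.5 to 112 CPM at 0 h to 322, 299, 290, 283 and 256 CPM. It rose 1.32 ± 0.22 in knockout. Slc7a6, which exchanges cationic for neutral amino acids, peaked at 2 h: wild-type libraries went from 58.6 to 73.1 CPM at 0 h to 140, 159, 151, 142 and 137 CPM, then to 101, 112, 114, 110 and 121 CPM at 6 h and to 66.3, 77.9, 73.7, 95 and 94.8 CPM at 24 h. The 2 h and 6 h ranges did not meet, and the change between them was -0.35 ± 0.08 log2. Slc3a2, the heavy chain shared by SLC7A5 and SLC7A6, rose 0.68 ± 0.07 at 2 h in wild type and 0.90 ± 0.13 in knockout, and at 24 h was still 0.30 ± 0.07 and 0.51 ± 0.12 above 0 h.

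The glutamine and neutral amino acid carriers had separate schedules. Slc1a5 peaked at 6 h: wild-type libraries held 302 to 353 CPM at 0 h, 422, 388, 410, 366 and 383 CPM at 2 h, 594, 602, 712, 717 and 686 CPM at 6 h, then 382, 372, 360, 420 and 438 CPM at 24 h. All 6 h libraries lay above those of the other times, with a rise of 0.79 ± 0.07 log2 from 2 h and a change of -0.84 ± 0.10 to 24 h. In knockout its values were 242 to 352 CPM (median 306) at 0 h, 370, 405, 564, 374 and 282 CPM at 2 h, then 443, 729, 772, 691 and 407 CPM at 6 h, where the groups overlap, and the step from 2 to 6 h was 0.67 ± 0.16. Slc38a1 rose 0.74 ± 0.08 at 2 h in wild type and 0.75 ± 0.14 in knockout, and stayed 0.39 ± 0.08 and 0.53 ± 0.14 above 0 h at 24 h.

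Slc38a2, a carrier whose transcript is known to respond to amino acid shortage, fell between 2 and 6 h. The wild-type libraries held 608, 626, 542, 600 and 627 CPM at 2 h, then 322, 331, 346, 329 and 323 CPM at 6 h, a change of -0.83 ± 0.09, and the knockout changed by -0.91 ± 0.10. At 24 h its level followed the library set: 417, 423 and 337 CPM in the 3 wild-type libraries of set C and 243 and 241 CPM in the pair of set B. The step from 6 to 24 h was 0.51 ± 0.12 log2 with the set as a term and 0.01 without it.

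Slc1a4, a carrier of serine, alanine and cysteine, started from few reads. Wild-type libraries held between 0.0491 and 0.882 CPM at 0 h, 3.96, 4.95, 5.04, 3.88 and 6.19 CPM at 6 h, then 7.50, 9.83, 6.88, 5.15 and 7.98 CPM at 24 h, with no overlap between 0 h and either. Within set A its level at 6 h was 14.6 times that at 0 h (95% interval 9.98 to 22.3 from 438 and 28 reads, counting error only). Within sets B and C the ratio of 24 h to 0 h was 13.7 (10.6 to 18), and in knockout 7.33 (5.83 to 9.32). Slc7a11, the cystine carrier, had no read in any wild-type 0 h library and 26 reads over the 5 wild-type 24 h libraries, 25 of them in library 1 and 1 in library 5.

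**Figure D2:**
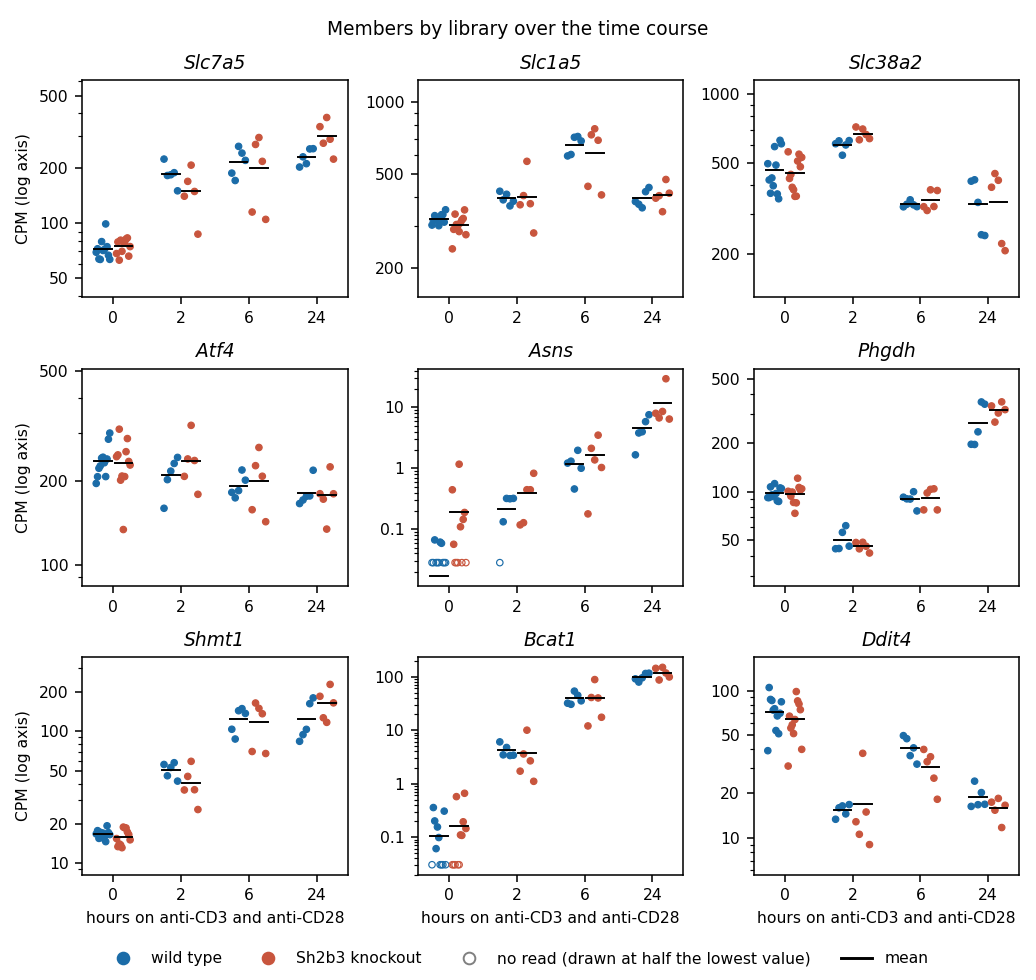
CPM on a log axis in every library (points, blue for wild type and red for Sh2b3 knockout) at 0, 2, 6 and 24 h for 9 genes; bars are means, and open circles are libraries with no read, drawn below the lowest value of the panel. Slc1a5 is highest at 6 h, Phgdh dips at 2 h, and Asns and Bcat1 climb from libraries with no read.

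The mRNA of Atf4 moved little. Wild-type libraries held 196 to 299 CPM (median 233) at 0 h, then 160, 203, 218, 232 and 244 CPM at 2 h, 182, 174, 185, 220 and 202 CPM at 6 h, then 166, 171, 176, 177 and 219 CPM at 24 h. The change from 0 h to 24 h was -0.31 ± 0.10 log2 in wild type (adjusted p = 0.00712 in edgeR), where the ranges overlap. In knockout the change was -0.19 ± 0.18 and did not pass the test. The wild-type value at 2 h was -0.26 ± 0.10, and it no longer passed without library 1 (-0.18) or library 2 (-0.24) of that group.

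Asns, which encodes asparagine synthetase and is a standard ATF4 target, was near 0 reads in naive cells and rose in steps. In wild type 8 of the 11 libraries at 0 h had no read, and none exceeded 0.0668 CPM. The wild-type libraries then held 0, 0.133, 0.320, 0.316 and 0.321 CPM at 2 h, 1.22, 1.31, 0.458, 1.97 and 1.0 CPM at 6 h, then 1.66, 3.80, 3.97, 5.82 and 7.56 CPM at 24 h. The pooled reads of sets B and C gave 491 at 24 h and 2 at 0 h, a ratio of 280 with a counting interval of 77.1 to 2320. The ratio was 487 or 477 without the 0 h library 3 or 8, each of which held 1 of those 2 reads. In knockout the ratio was 45.7 (32.2 to 67.1, from 1385 and 32 reads). Knockout 0 h library 6 alone held 29 of those 32 reads. Knockout libraries held up to 1.17 CPM at 0 h, 0.179, 2.12, 1.37, 3.5 and 1.03 CPM at 6 h, then 7.98, 6.71, 8.55, 29.4 and 6.42 CPM at 24 h. The 24 h groups, where Asns was at its highest of the time course, were thus those where Atf4 mRNA was lower than at 0 h (wild type) or did not differ from it past the test (knockout).

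The 3 enzymes of serine synthesis dipped or held at 2 h and were high at 24 h. Phgdh, the first enzyme of the pathway, lay between 86.9 and 112 CPM (median 95.4) in wild-type 0 h libraries and held 44.3, 44.4, 55.9, 61.5 and 46.0 CPM at 2 h. It returned to 92.3, 90.2, 89.9, 99.8 and 75.9 CPM at 6 h and held 196, 196, 234, 358 and 347 CPM at 24 h. The 2 h libraries lay below and the 24 h libraries above all others, with steps of -1.03 ± 0.12, 0.87 ± 0.12 and 1.61 ± 0.17 log2. Knockout libraries made the same steps by -1.23 ± 0.11, 1.06 ± 0.10 and 2.10 ± 0.14.

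Psat1, the aminotransferase of the second step, did not pass the test at 2 h in wild type (0.13 ± 0.13), with 30 to 45.8 CPM at 0 h, then 51.6, 43.1, 49.5, 44.0 and 31.4 CPM at 2 h, then 73.5, 69.5, 93.4, 86.8 and 80.8 CPM at 6 h. The 24 h libraries held 126, 128 and 136 CPM in set C and 251 and 258 CPM in set B, and the change from 0 h was 2.12 ± 0.12 log2. The knockout changed by 2.85 ± 0.23. Psph, the phosphatase of the last step, changed by -0.92 ± 0.13 at 2 h and was 0.61 ± 0.12 above 0 h at 24 h in wild type, against -1.06 ± 0.12 and 0.77 ± 0.11 in knockout. Its 24 h libraries (39.1 to 50.9 CPM in wild type, 38.3 to 47.6 in knockout) lay above every 0 h library of their genotype.

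All 5 folate enzymes were higher at 6 h than at 2 h and higher at 24 h than at 0 h, in both genotypes. Shmt1, the cytosolic serine hydroxymethyltransferase, was the one of them that rose most at 2 h: from 14.6 to 19.2 CPM at 0 h to 56.1, 46.1, 53.3, 57.9 and 42.0 CPM in wild type, a change of 1.61 ± 0.15 log2. It then held 104, 87.5, 144, 149 and 137 CPM at 6 h, and at 24 h was 2.82 ± 0.14 above 0 h in wild type and 3.48 ± 0.22 in knockout. Shmt2, its mitochondrial counterpart, did not pass the test at 2 h (-0.10 ± 0.09 in wild type), and went from 150, 159, 154, 154 and 130 CPM at 2 h to 302, 281, 321, 334 and 284 CPM at 6 h, with no overlap. The level at 24 h was 1.03 ± 0.09 above 0 h in wild type and 1.35 ± 0.16 in knockout.

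Mthfd1, the trifunctional cytosolic enzyme that interconverts folate-bound carbon, fell before it rose. Wild-type libraries went from 53.8 to 89.8 CPM at 0 h to 38.1, 40.8, 44.6, 46.0 and 31.3 CPM at 2 h, then 153, 124, 140, 173 and 135 CPM at 6 h, changes of -0.95 ± 0.18 and 1.89 ± 0.18. These ranges did not meet. Knockout changed by -1.29 ± 0.21 and 2.07 ± 0.21 over the same steps. Mthfd1l, the mitochondrial formate-producing synthetase, changed by -0.62 ± 0.11 at 2 h and was 0.57 ± 0.10 above 0 h at 24 h in wild type, against -0.66 ± 0.17 and 0.98 ± 0.16 in knockout. Mthfd2, the mitochondrial dehydrogenase known to be high in proliferating cells, had no such dip: 0.67 ± 0.14 at 2 h and 1.93 ± 0.13 at 24 h against 0 h in wild type, with 0.14 ± 0.24 (not past the test) and 2.33 ± 0.23 in knockout. The 24 h changes average over library sets that differed. Mthfd1l in wild type averaged 99.45 CPM at 0 h and 205.5 CPM at 24 h in set B, and 103.6 and 127 CPM in set C. At 24 h Phgdh, Shmt1, Mthfd2 and Got2 averaged 353, 171, 148 and 256 CPM in wild-type set B. In set C they averaged 209, 94.0, 88.1 and 174 CPM. Psph went the other way, at 40.3 and 46.9 CPM. A set term that is the same at all times does not absorb such shifts.

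Among the aspartate, branched-chain and proline enzymes, Bcat1 went from few reads to the widest span of the time course. This cytosolic aminotransferase, which removes the amino group of leucine, isoleucine and valine, had at most 0.357 CPM in wild-type 0 h libraries. It held 6.03, 3.45, 4.74, 3.35 and 3.40 CPM at 2 h, 31.9, 30.4, 53.5, 44.7 and 35.3 CPM at 6 h, then 90.8, 79.2, 95, 114 and 116 CPM at 24 h, and no 2 time points overlapped. Pooled reads gave a ratio of 50.8 (counting interval 24.3 to 127) for 2 h against 0 h in set A and 774 (469 to 1380) for 24 h against 0 h in sets B and C, and 14.8 (9.57 to 23.9) and 805 (515 to 1340) in knockout. Single libraries moved these values: the 2 h ratio was 144 without wild-type 0 h library 10, 30.8 without knockout 0 h library 10 and 8.83 without knockout 2 h library 3, and the knockout 24 h ratio was 5840 without 0 h library 4. Bcat2, the mitochondrial form, went the other way at 2 h, with a change of -0.74 ± 0.12 in wild type and -0.60 ± 0.13 in knockout. At 24 h Bcat2 did not differ from 0 h past the test (-0.20 ± 0.12 and -0.10 ± 0.12), but the library sets went opposite ways. In wild type it averaged 44.8 CPM at 0 h and 50.8 CPM at 24 h in set B, and 42.3 and 31.2 CPM in set C. In knockout the averages were 42.9 and 49.6 CPM in set B, and 42.9 and 32.1 CPM in set C.

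Got1 and Got2 encode the cytosolic and mitochondrial aspartate aminotransferases, and of this pair Got2 rose late. Got2 held 82.2 to 106 CPM at 0 h, 102 to 111 CPM at 6 h, then 174, 164, 184, 241 and 271 CPM at 24 h in wild type, 0.82 ± 0.14 log2 above 6 h. Got1 in wild type already held 37.32 to 43.33 CPM at 6 h, above its 0 h range of 22.55 to 32.64 CPM. At 24 h it was 1.0 ± 0.11 above 0 h in wild type and 1.73 ± 0.13 in knockout. Pycr1, an enzyme of proline synthesis, rose between 2 and 6 h in wild type. It went from 0, 0.265, 0.128, 0.632 and 0.193 CPM to 2.13, 2.38, 3.78, 2.63 and 3.60 CPM, a ratio of pooled reads of 11.4 (7.18 to 19.3). The knockout ratio was 12.8 (6.54 to 28.5). It was 19.1 in wild type without 2 h library 4, and 8.44 or 23.3 in knockout without library 2 at 6 h or at 2 h. Aldh18a1, which makes the proline precursor and carries the E-box printed above, was 0.52 ± 0.07 above 0 h at 24 h in wild type and 0.79 ± 0.11 in knockout.

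The stress effectors did not move as a block. Ddit4, which encodes the mTORC1 inhibitor REDD1, was high in naive cells at 39.1 to 105 CPM (median 73.7) in wild type. It held 13.4, 16, 16.5, 14.5 and 16.8 CPM at 2 h, 49.4, 47.1, 36.2, 40.8 and 31.7 CPM at 6 h, then 16.3, 24.2, 16.8, 20.3 and 16.9 CPM at 24 h. The steps were -2.07 ± 0.18, 1.45 ± 0.18 and -1.38 ± 0.23 log2, each between ranges that did not meet, while those of 0 and 6 h met, as did those of 2 and 24 h. The knockout libraries held 30.7 to 98.5 CPM (median 63.6) at 0 h, then 12.9, 10.6, 37.5, 15 and 8.99 CPM at 2 h, then 39.8, 32.9, 35.5, 25.4 and 18.3 CPM at 6 h. The change at 2 h was -1.89 ± 0.34, library 3 alone reaching the 0 h range, and at 24 h all 5 libraries, at 11.7 to 18.5 CPM, lay below every 0 h library.

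Sesn2, a leucine sensor that restrains mTORC1, moved in the opposite sense to Ddit4 at 2 h. It rose from 3.63 to 12.8 CPM at 0 h to 22.6, 19.5, 18.6, 21.0 and 25.5 CPM in wild type, a change of 1.69 ± 0.22, and by 1.68 ± 0.21 in knockout. Between 6 and 24 h it changed by -1.52 ± 0.30 in wild type and -1.29 ± 0.29 in knockout. Cebpb, a transcription factor that pairs with ATF4, fell from 11.2 to 85.8 CPM (median 34.9) at 0 h to 2.10, 4.58, 6.79, 5.62 and 6.93 CPM at 2 h, a change of -3.48 ± 0.40. Monocytes also carry Cebpb, and the 5 monocyte and macrophage markers summed to 0.433 to 4.96 CPM in the wild-type 0 h libraries. The step of Cebpb from 6 to 24 h in wild type was 1.61 ± 0.51 with the set as a term and 0.57, not past the test, without it.

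Ddit3, which encodes the pro-apoptotic factor CHOP, was lower at 24 h than at 0 h, with log2 changes of -0.82 ± 0.18 in wild type and -0.97 ± 0.17 in knockout. Eif4ebp1, a translation repressor inactivated by mTORC1 and an ATF4 target, rose instead, by 1.98 ± 0.27 and 2.46 ± 0.23. Trib3, a pseudokinase that restrains ATF4 signalling, was 1.46 ± 0.37 and 1.51 ± 0.39 higher at 24 h, with 0.647 to 2.97 CPM at 0 h, then 10.6, 3.19, 9.49, 3.17 and 2.59 CPM at 24 h in wild type. Its rise at 2 h in wild type, 1.08 ± 0.40, was 0.55 and no longer past the test without library 5 of that group. Chac1, which degrades glutathione, had no read in any of the 22 libraries at 0 h, and was at least 11.4 times higher at 24 h in wild type (30 reads in sets B and C) and at least 38.7 times higher in knockout (110 reads), against a floor of 3 reads over the 0 h group. The wild-type reads came from library 2 (19 reads) and library 5 (11 reads), and in knockout library 1 held 65, so the bounds were 5.08 without wild-type library 2 and 22.8 without knockout library 1. Vldlr, a lipoprotein receptor gene listed among ATF4 targets, had no read in any 24 h library without anti-IL-2.

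Deletion of Sh2b3 changed none of these genes past the test at any time. Knockout against wild type, the count was 0 of 26 genes tested at 0 h (0.633% of all 12802 genes were called), 0 of 28 at 2 h (0.0647%), 0 of 30 at 6 h (0.0306%), 0 of 31 at 24 h (0.372%) and 0 of 31 at 24 h with anti-IL-2 (0.35%), by edgeR's quasi-likelihood test. With so few calls over all genes, 0 among about 30 is near the background. Without the set term 28 of all genes in place of 81 were called at 0 h and 3 in place of 48 at 24 h, and still none of these. In DESeq2 the counts were 0 in every group but 24 h without anti-IL-2. In edgeR an unadjusted p under 0.05 was reached by 1 of 26, 6 of 28, 1 of 30, 13 of 31 and 7 of 31 of them. Of all genes it was reached by 10.4%, 13.1%, 5.68%, 11.7% and 9.48%. At 2 h, and at 24 h with and without anti-IL-2, the share of these genes was thus the higher. At 2 h most of them lay below 0 in knockout, with 11 of 28 above it. Psat1 was the 1 gene at 0 h, at -0.21 ± 0.08 (95% interval -0.36 to -0.05, adjusted p = 0.304).

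At 24 h, 22 of the 31 genes were above 0 in knockout, with a median log2 difference of 0.24 against 0 over all genes (50% of all genes were above 0). The smallest p-values were those of Asns at 1.34 ± 0.35 (adjusted p = 0.124), Got1 at 0.48 ± 0.13 (adjusted p = 0.140), Psat1 at 0.42 ± 0.12 (adjusted p = 0.187), Shmt1 at 0.43 ± 0.13 (adjusted p = 0.214) and Eif4ebp1 at 0.69 ± 0.22 (adjusted p = 0.217), all from edgeR. Eif4ebp1 held 5.95, 13.2, 14.9, 13.7 and 14.7 CPM in wild type and 22.0, 19.9, 17.2, 25.1 and 17.0 CPM in knockout, without overlap. For Got1 the values were 41.3, 49.3, 56.5, 71.5 and 79.2 CPM in wild type and 85.7, 73.9, 86.2, 85.2 and 77.8 CPM in knockout. Slc1a4 was the 1 gene of the 13 that lay lower, at -0.63 ± 0.26.

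The difference at 24 h was not the same in both library sets. In set C, with 3 libraries per genotype, the median over the genes was 0.40 and 23 of 31 were above 0; in set B, with 2 per genotype, it was 0.02 and 17 of 30 were above 0. Neither set gave a call, and the difference between the sets was not itself tested. Psat1 in wild type averaged 130 CPM in set C and 255 CPM in set B, and in knockout 209 and 264 CPM. Mthfd1 in wild type averaged 153 and 298 CPM, and in knockout 232 and 293 CPM. Knockout minus wild type was 0.68 ± 0.14 in set C and 0.05 ± 0.13 in set B for Psat1, 0.74 ± 0.15 and 0.11 ± 0.13 for Got1, 0.60 ± 0.14 and -0.03 ± 0.15 for Mthfd1, and 0.61 ± 0.14 and 0.00 ± 0.14 for Slc7a5. Asns differed by 1.30 ± 0.42 and 1.40 ± 0.65, but in set B the knockout pair held 29.4 and 6.42 CPM and the wild-type pair 5.82 and 7.56 CPM, so the value rests on knockout library 4. Without that library the difference over both sets was 0.90.

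Which genes pass at 24 h also rests on 1 library and on the tool. Without knockout library 5 of the 24 h group, 8 of these genes passed, all higher in knockout: Asns, Mthfd2, Psat1, Slc7a1, Shmt1, Got1, Slc7a5 and Mthfd1, at adjusted p from 0.00723 to 0.0384 in edgeR, while the count over all genes rose from 48 to 361. DESeq2 called Asns (adjusted p = 0.0158) and Got1 (adjusted p = 0.0351). With no filter on low counts, edgeR called 7, with Asns at an adjusted p of 6.55e-05. The shares of all genes called by DESeq2 and without the filter are not given here. These counts can therefore not be set against a background.

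**Figure D3:**
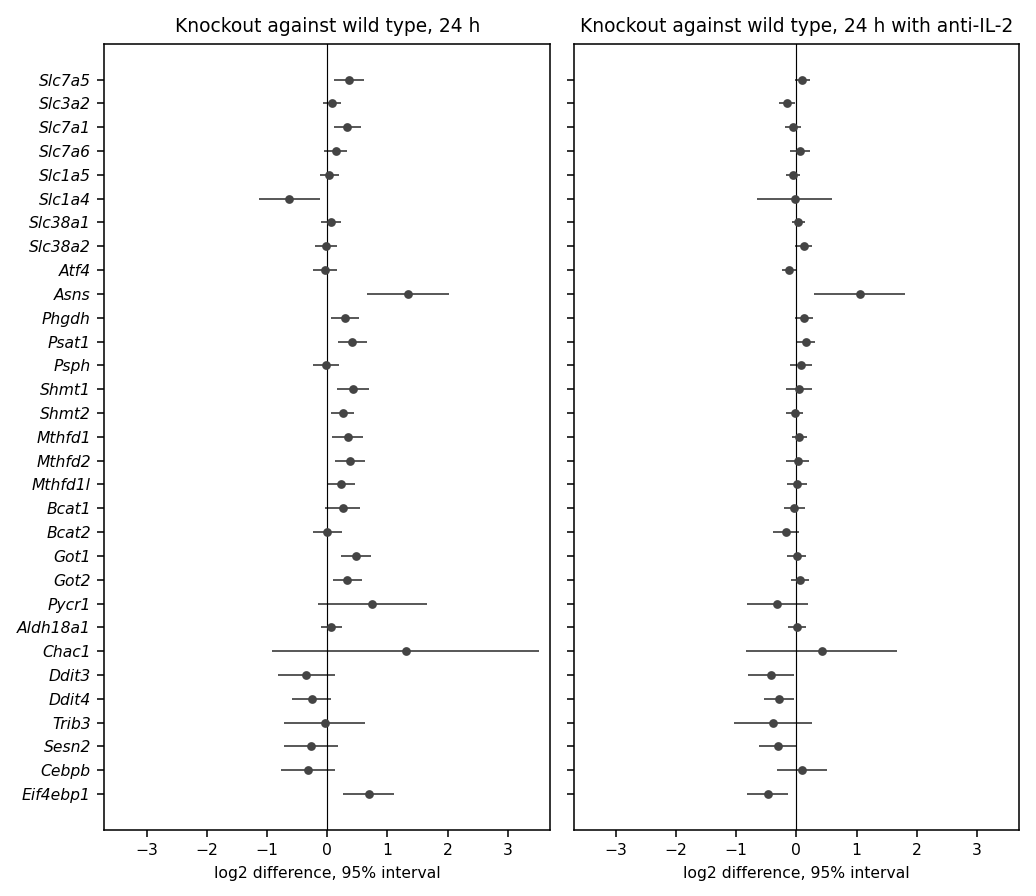
Knockout minus wild type on the log2 scale (points, with 95% intervals) for the 31 genes tested at 24 h, without anti-IL-2 on the left (5 libraries per genotype) and with it on the right (4 per genotype). At 24 h 22 of 31 points lie above 0, and with anti-IL-2 17 of 31 do; no gene passed the test in either panel.

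At earlier times most of these genes lay slightly below 0. At 0 h 5 of 26 were above 0 in knockout, with a median of -0.04. At 2 h the median was -0.15 (11 of 28 genes above 0), with Psat1 at -0.60 ± 0.20 (adjusted p = 0.265) and Slc7a6 at -0.25 ± 0.08 (adjusted p = 0.255). At 6 h it was -0.05 (11 of 30 above 0). The knockout libraries spread widely at 6 h: libraries 1 and 5 held 115 and 105 CPM of Slc7a5 where the others held 270, 295 and 218 CPM, and 12.0 and 17.4 CPM of Bcat1 against 40.7, 88.0 and 39.9 CPM. The same pair was lowest of its group in Slc1a5, with 443 and 407 CPM, in Shmt1, with 70.4 and 68.0 CPM, and in Mthfd1, with 85.6 and 74.3 CPM. Wild-type libraries at 6 h ranged from 171 to 264 CPM in Slc7a5 and from 30.4 to 53.5 CPM in Bcat1.

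The test of whether the response from 0 h differed between genotypes gave no call at 2 h (0% of all 15762 genes), 6 h (0%) or 24 h (0.14%). The closest at 24 h were Got1, whose rise was larger in knockout by 0.54 ± 0.16 (adjusted p = 0.151), Got2 by 0.35 ± 0.12 (adjusted p = 0.236) and Psat1 by 0.63 ± 0.23 (adjusted p = 0.257). Over these 3 tests, 0, 1 and 6 of 31 genes had an unadjusted p under 0.05. Of all genes it was reached by 6.35%, 5.06% and 12%. DESeq2 also called none, and edgeR with no filter on low counts called Psat1, Shmt1 and Slc7a1 at 24 h. The share of all genes called without the filter is not given here.

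Blocking IL-2 moved few of these genes. Anti-IL-2 and library set D cannot be told apart, since all anti-IL-2 libraries and no others are in that set. Ddit4, the mTORC1 inhibitor gene, was higher with anti-IL-2 in both genotypes. In wild type the 5 libraries without the antibody held 16.3, 24.2, 16.8, 20.3 and 16.9 CPM and the 4 with it 30.9, 36.4, 35.5 and 30.2 CPM, a difference of 0.81 ± 0.15 log2 (adjusted p = 0.0104). In knockout the values were 17.5, 15.4, 18.5, 11.7 and 16.6 CPM and 22.1, 28, 27.0 and 32.2 CPM, a difference of 0.78 ± 0.17 (adjusted p = 0.0177), again without overlap. Both stayed below the 0 h median.

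Slc1a5 was the only other gene called, in wild type only: 382, 372, 360, 420 and 438 CPM without and 484, 527, 523 and 501 CPM with the antibody, 0.36 ± 0.09 (adjusted p = 0.0347). The knockout value was 0.27 ± 0.09 (adjusted p = 0.115), with 395, 404, 346, 473 and 414 CPM against 510, 516, 486 and 442 CPM. In all, 2 of 31 genes were called in wild type (4.4% of all 13273 genes were) and 1 of 31 in knockout (5.27% of 13678), so the shares of 6.45% and 3.23% are near the background. The calls changed with single libraries. Ddit4 no longer passed in wild type without anti-IL-2 library 2 (0.77) or 3 (0.79), and in knockout without anti-IL-2 library 2 (0.76), 3 (0.78) or 4 (0.69), while its log2 difference stayed between 0.68 and 0.91 whichever library was left out. Slc1a5 in wild type kept its call only when library 4 or 5 of the group without antibody was the one left out, with values of 0.33 to 0.40 over the 9 omissions.

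Genotype did not alter the response to anti-IL-2 past the test in any of the 31 genes (0% of 14778 genes were called). An unadjusted p under 0.05 was reached by 3 of the 31, and by 4.4% of all genes. The largest was Eif4ebp1, at -1.17 ± 0.31. It went from 5.95, 13.2, 14.9, 13.7 and 14.7 CPM to 15.8, 25.0, 24.2 and 17.8 CPM in wild type and from 22.0, 19.9, 17.2, 25.1 and 17.0 CPM to 13.7, 13.7, 18.9 and 13.4 CPM in knockout. The separate differences, 0.73 ± 0.25 in wild type and -0.44 ± 0.17 in knockout, did not pass (adjusted p = 0.116 and 0.170 in edgeR). With the antibody present, Asns held 2.11, 7.73, 8.59 and 9.35 CPM in wild type and 24.2, 13.1, 9.72 and 10.6 CPM in knockout, 1.05 ± 0.38 higher without overlap (adjusted p = 0.387), and the median over the genes was 0.01.

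**Figure D4:**
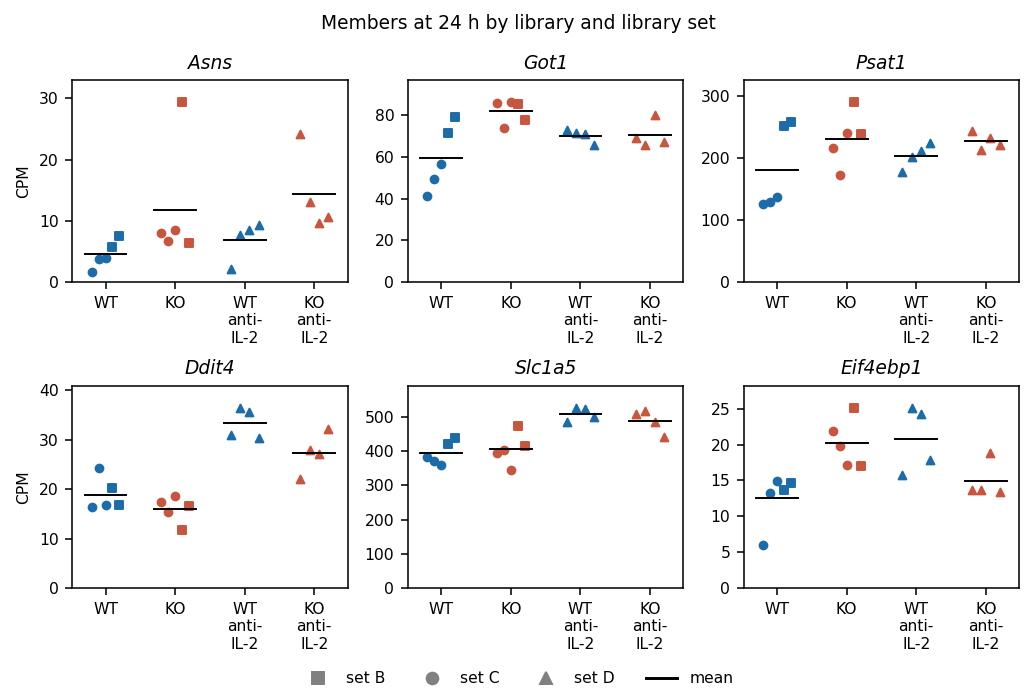
CPM of 6 genes in each 24 h library (blue wild type, red knockout; squares set B, circles set C, triangles set D) without and with anti-IL-2, with group means as bars and axes from 0. Wild-type circles lie below wild-type squares in Got1 and Psat1, and Ddit4 is higher in every anti-IL-2 library than in any library of its genotype without the antibody.

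The neighbouring pathways are given by their counts at 24 h against 0 h, where 27.8% of all genes were higher and 31.6% lower in wild type. Of 20 cytosolic aminoacyl-tRNA synthetases, which charge tRNAs with amino acids, 19 were higher and none lower at 24 h than at 0 h in each genotype, with medians of 0.94 in wild type and 1.18 in knockout. Aars at 1.64 ± 0.08, Wars at 1.57 ± 0.08 and Iars at 1.46 ± 0.10 had the smallest adjusted p in wild type. Of 12 genes of de novo purine synthesis, which uses the one-carbon units and glycine made above, 10 were higher and 2 lower in each genotype, with Pfas at 1.95 ± 0.11 and Ppat at 1.53 ± 0.11. Of 22 other folate and one-carbon genes tested, 11 were higher and 5 lower in wild type and 11 higher and 3 lower in knockout. The wild-type changes include the folate carrier Slc19a1 at 2.31 ± 0.13 and the thymidylate synthase Tyms at 3.93 ± 0.22.

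Other amino acid transporters were mixed, with 5 of 20 higher and 8 lower at 24 h in wild type and 8 of 21 higher and 5 lower in knockout. Lower in wild type were the lysosomal carriers Slc36a1 at -1.12 ± 0.10 and Slc38a9 at -1.21 ± 0.15. Other genes of the ATF4 and integrated stress response were also split, with 9 of 23 higher and 7 lower in wild type and 10 of 24 higher and 7 lower in knockout. Ppp1r15a, which restores translation after stress, changed by -4.18 ± 0.17 and Xpot, a tRNA exporter, by 1.14 ± 0.08. Of 25 other genes of amino acid metabolism, 10 were higher, led by the polyamine enzymes Odc1 at 3.21 ± 0.11 and Srm at 2.19 ± 0.13, and 5 lower in wild type, and 11 were higher and 2 lower in knockout. Of 27 mTORC1 and amino acid sensing genes, 6 were higher and 10 lower in wild type and 9 higher and 6 lower in knockout. In wild type Rraga, a GTPase that brings mTORC1 to the lysosome, was at 0.66 ± 0.09 and Flcn, which acts on such GTPases, at -0.49 ± 0.08.

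Between genotypes, 1 gene of these lists was called, Odc1 at 0 h (0.27 ± 0.06 higher in knockout, adjusted p = 0.0338 in edgeR). Of all genes, 0.633% were called there. With anti-IL-2, Mtor was higher in both genotypes, by 0.76 ± 0.16 in wild type (adjusted p = 0.0225) and 0.64 ± 0.11 in knockout (adjusted p = 0.00604, both edgeR). Wars, the tryptophanyl-tRNA synthetase, changed by -0.55 ± 0.09 in knockout (adjusted p = 0.00384) and by -0.35 ± 0.10 in wild type (adjusted p = 0.0679). Other calls with anti-IL-2 included Ndrg1, higher in wild type, Depdc5, higher in knockout, and Atf3, Glul, Fnip1 and Rragd, lower in knockout. In wild type 1 of 23 stress response, 1 of 22 folate and 1 of 27 mTORC1 genes were called, against 4.4% of all genes. In knockout 1 of 24 stress response, 1 of 20 synthetase and 1 of 24 amino acid metabolism genes were called, against 5.27% of all genes. Of 27 mTORC1 genes, 3 were higher and 2 lower in knockout. The remaining lists had no call with anti-IL-2.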

How the data were processed

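Gene counts of mRNA libraries were used as deposited; per the submitters' processing notes, the authors aligned reads to GRCm39 with STAR 2.7.9a and counted them with featureCounts 2.0.1, while the annotation and strand setting are not given in the sources used here. Reads were not counted with molecular identifiers, so intervals from reads cover counting error only. GENCODE M21 names matched 52081 of 55414 rows, which hold 99.6% of reads. Counts were scaled by TMM and tested with edgeR 4.0.16 (R 4.3.3; quasi-likelihood, robust; minimum count 10 in filterByExpr), with p-values adjusted by Benjamini-Hochberg across every gene tested and a threshold of 0.05. Time fits used all libraries of 1 genotype with the library set as a term, and genotype fits used the libraries of 1 time, at 0 and 24 h also with the set. Values after ± are SE for log2 differences. Genes of few reads are given as ratios of pooled reads with 95% exact binomial intervals, and again without each library, a check chosen after seeing the data. DESeq2 1.42.0, other scaling, no filter, single sets and leaving out libraries were alternatives. All 33 genes are described; from other lists up to 4 genes per comparison are named by smallest adjusted p. The genes and lists were chosen with earlier results of these data known. Results of some genes of the other lists are not reported here.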

Additional observations from a re-analysis of the deposited data

Results flagged for a closer look

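In 12 of the 235 combinations of gene and group checked (groups of 4 or 5 libraries, mean of at least 1 CPM), 1 library lay far from the others by Dixon's ratio, which chance alone gives in about 1 of 20. In wild type at 2 h, library 1 held 11.62 CPM of Psph (others 15.56 to 16.94) and library 5 held 7.38 CPM of Trib3 (others 1.525 to 2.754). In wild type at 24 h, library 5 held 219.2 CPM of Atf4 (others 166.1 to 177), library 2 held 15.81 CPM of Sesn2 (others 8.216 to 9.722) and library 1 held 5.946 CPM of Eif4ebp1 (others 13.24 to 14.89). Knockout library 3 held 9.977 CPM of Bcat1 (others 1.104 to 3.584) and 37.49 CPM of Ddit4 (others 8.994 to 14.97) at 2 h, and 40.19 CPM of Sesn2 (others 18.43 to 22.73) at 6 h. Knockout library 4 at 24 h held 29.44 CPM of Asns (others 6.423 to 8.551). With anti-IL-2 in knockout, library 4 held 274.4 CPM of Slc7a1 (others 240 to 245.7) and 9.618 CPM of Sesn2 (others 12.31 to 12.44), and library 3 held 18.88 CPM of Eif4ebp1 (others 13.36 to 13.74).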

How the results depend on the processing

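Of 8407 values of single genes under an alternative, 8160 kept their direction and their side of the threshold, 137 lost the call, 110 gained one and none reversed a call. Requiring a change of at least 1.5-fold left 13 genes called in wild type at 6 h against 2 h and 1 with anti-IL-2 in wild type. Without the set term 19 genes were called in knockout at 24 h against 6 h, and set C alone gave 1 call between genotypes at 0 h (Ddit4, -0.60, adjusted p = 0.0063 in edgeR). With no filter on low counts 7 genes were called between genotypes at 24 h, 2 with anti-IL-2 in knockout and 3 for genotype by time at 24 h, and DESeq2 called 2 and 3 of the first pair. Shares of all genes called without the filter and by DESeq2 are not given here. Leaving out 1 library at a time gave 0 to 8 calls between genotypes at 24 h, 0 to 4 with anti-IL-2 in wild type and 0 to 3 in knockout. The cause of these shifts was not tested. A replicate block by label number was tried within set A, where the labels do not say that numbers pair. It gave 23 and 22 calls in wild type (2 h against 0 h, 6 h against 2 h) and 20 and 21 in knockout. Set A without the block gave 24, 23, 19 and 17. Genes near 0 reads at 0 h (Asns, Bcat1, Pycr1, Slc1a4, Chac1, Slc7a11) are limited by depth, since their ratios rest on few reads.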
